A study of Mus musculus with 12 samples.

Results

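The receptors through which neurons receive neurotrophic factors were followed as a set of 10 genes in mouse lower motor neurons. Ret, Gfra1 and Gfra2 serve ligands of the GDNF family, Ntrk2, Ntrk3 and Ngfr serve the neurotrophins, Cntfr, Lifr and Il6st serve CNTF and LIF, and Met serves HGF. The genes were taken by symbol for their known ligands, by a rule that itself uses no measured value, and are 10 of 25965 genes in the count table. All 10 passed the filter on low counts, which left 16338 genes for testing.

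Lumbar motor neurons were cut out by laser from C57BL/6 mice at an age of 5 months, and their polyadenylated RNA was sequenced. There were 4 libraries of wild type mice, 4 of mice heterozygous for the knock-in allele Q331K of TDP-43 and 4 of homozygotes. Q331K is an amino acid change known from amyotrophic lateral sclerosis (ALS), in a protein that binds RNA and is made from the gene Tardbp. Whether a library stands for a single animal, and how many cells it pools, is not in the labels, so the p-values measure only the spread between libraries, which may in part be technical. The comparisons bear on receptor transcripts in neurons with 1 or 2 mutant alleles.

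Motor neurons depend on factors made by muscle, Schwann cells and other cells around them. GDNF is held by the anchored co-receptor GFRA1, which hands it to the kinase RET. Neurotrophins bind TRK kinases and the low-affinity receptor p75, while CNTF and LIF use receptor subunits that share gp130 and signal through JAK kinases and STAT3.

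Libraries held between 60886825 and 83504446 counts. Chat, the enzyme that makes acetylcholine, lay between 63.5 and 353 CPM (a gene's counts scaled to the size of its library), and Isl1 and Mnx1, transcription factors of motor neurons, were found in all 12 libraries. Heterozygous replicate 1 and homozygous replicate 1 stood apart: the summed CPM of 6 excitatory interneuron markers was 1.17 and 7.59 in them against 184 to 335 in the other 10 libraries, and that of 7 inhibitory markers was 21.1 and 15.7 against 186 to 450. Their 11 motor neuron markers summed to 17040 and 17630 CPM against 8730 to 12780 in the others. Oligodendrocyte markers summed to 943 to 2842 CPM over the libraries, so the captured material held RNA of other cells. The astrocyte markers summed to 1549 to 2160 CPM, mostly through Aldoc and S100b, with means of 893 and 730 CPM. Slc1a2 came next with 44.3 CPM, and Slc1a3 and Aldh1l1 were at 0 in 1 library each. In heterozygous replicate 1 and homozygous replicate 1, S100b was at 979 and 1010 CPM against 594 to 737 elsewhere. Aldoc was at 467 and 511 CPM there, against 791 to 1281 elsewhere. The cells behind Aldoc and S100b were not tested. Tardbp itself was at 73.7 ± 7.68 CPM in wild type, and at 73.0 ± 5.48 and 75.6 ± 2.17 CPM with 1 and 2 mutant alleles (SD, n = 4 each), but its total level cannot show an amino acid change. In such bulk samples fewer cells of a type and less RNA per cell cannot be told apart.

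No receptor passed the test in any comparison. The count was 0 of 10 members at an adjusted p below 0.05 (edgeR's quasi-likelihood test, Benjamini-Hochberg over all genes tested) between homozygotes and wild type, where 0.00612% of all genes passed, which is 1 gene. It was also 0 of 10 between heterozygotes and wild type, between homozygotes and heterozygotes, and for any genotype difference, where 0% of genes passed. DESeq2 and limma-voom also called 0 of the 10 in each comparison. At an unadjusted p below 0.05, Met alone was lower in homozygotes than in wild type, 1 of 10 against 4.82% of all genes. The same count was 0 of 10 between heterozygotes and wild type (4.1% of genes), between homozygotes and heterozygotes (2.97%) and for any genotype difference (3.59%). CPM ranges that did not overlap were found for 0 of 10 receptors between homozygotes and wild type (3.41% of genes), heterozygotes and wild type (3.24%) and homozygotes and heterozygotes (2.03%). In each of these comparisons 5 receptors were higher and 5 lower, with median log2 differences of -0.02, -0.01 and 0.02, beside medians of all genes of 0.00 in each. The tally without wild type replicate 1, left out after its values were seen, was 8 higher and 2 lower in homozygotes (median 0.31). It was 7 higher and 3 lower in heterozygotes (median 0.32). Of all genes, 51% and 50.3% were then higher, with medians of 0.01 and 0.00. Both comparisons with wild type use the same 4 wild type libraries.

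The promoters of 4 receptors are given. Gfra1, Lifr and Ngfr are 3 of the 5 receptors that were far above the rest of their group in wild type replicate 1, of which Ret and Gfra2 are not shown, and Met had the smallest p. Each run has 300 bases, 250 before and 50 after the start in RefSeq (build GRCm38.p6), printed 5′ to 3′ on the gene's strand, with the motif matches described next in capitals. They lie at chr19:58455349-58455648 on the minus strand (Gfra1), chr15:7129322-7129621 on the plus strand (Lifr), chr11:95587649-95587948 on the minus strand (Ngfr) and chr6:17463707-17464006 on the plus strand (Met).
Gfra1: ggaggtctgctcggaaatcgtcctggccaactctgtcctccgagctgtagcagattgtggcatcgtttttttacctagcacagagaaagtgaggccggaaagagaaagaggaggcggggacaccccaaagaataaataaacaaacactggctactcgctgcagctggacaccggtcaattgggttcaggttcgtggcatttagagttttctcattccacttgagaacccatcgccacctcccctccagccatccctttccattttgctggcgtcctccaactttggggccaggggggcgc
Lifr: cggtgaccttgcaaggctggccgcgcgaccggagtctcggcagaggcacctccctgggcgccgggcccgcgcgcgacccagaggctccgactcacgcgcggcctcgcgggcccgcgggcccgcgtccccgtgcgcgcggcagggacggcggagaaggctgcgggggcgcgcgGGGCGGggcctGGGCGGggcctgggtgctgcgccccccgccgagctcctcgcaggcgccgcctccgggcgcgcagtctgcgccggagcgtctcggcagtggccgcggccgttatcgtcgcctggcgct
Ngfr: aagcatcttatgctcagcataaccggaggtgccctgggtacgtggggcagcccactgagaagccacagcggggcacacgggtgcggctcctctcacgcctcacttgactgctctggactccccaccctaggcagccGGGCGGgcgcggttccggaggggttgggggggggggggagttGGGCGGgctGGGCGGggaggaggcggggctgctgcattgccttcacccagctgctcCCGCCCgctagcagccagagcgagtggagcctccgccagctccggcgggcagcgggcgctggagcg
Met: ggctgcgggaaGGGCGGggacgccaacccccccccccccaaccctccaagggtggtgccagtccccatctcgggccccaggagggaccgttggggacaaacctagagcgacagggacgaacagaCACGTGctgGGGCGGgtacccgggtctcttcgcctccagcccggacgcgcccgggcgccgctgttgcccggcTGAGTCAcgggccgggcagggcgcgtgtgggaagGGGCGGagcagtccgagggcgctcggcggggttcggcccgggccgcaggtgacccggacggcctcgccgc

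Both strands were searched for 6 motifs, and no matches overlapped one another. The GC box, GGGCGG, which SP1 binds, was matched 4 times in the Ngfr window, 2 times in that of Lifr and 3 times in that of Met, and 35.9% of 32544 promoters of the same length hold it. The Met window also had 1 match to the AP-1 motif, TGANTCA (7.79% of promoters), and 1 to the E-box, CACGTG (7.17%). The Gfra1 window had no match to any of the 6. The cAMP response element, TGACGTCA (1.8% of promoters), the STAT motif, TTCNNNGAA (8.33%), and the TATA box, TATAAA (13.6%), had 0 matches in these 4 windows.

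Levels of different genes were compared as RPKM, which divides CPM by the length of all exons of the gene in GENCODE M21. In wild type, Ret led with 39.9 ± 22.4 RPKM (SD, n = 4), followed by Gfra1 with 27.7 ± 18.1. The CNTF receptor genes Cntfr, at 14.5 ± 1.91, and Lifr, at 14.1 ± 8.51, came next, and Ntrk2 stood at 6.18 ± 0.898 RPKM (SD, n = 4 each). The GDNF receptor pair was thus the most abundant of the set, and the ranges of its members over the 4 wild type libraries overlapped each other but not that of Cntfr.

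The lower part of the order held Il6st at 2.33 ± 0.532 RPKM, Gfra2 at 1.65 ± 1.53, Ngfr at 1.32 ± 2.20, Ntrk3 at 1.03 ± 0.257 and Met at 0.326 ± 0.152 (SD, n = 4 each). Neighbours whose wild type ranges did not overlap were Gfra1 above Cntfr, Lifr above Ntrk2, Ntrk2 above Il6st and Ntrk3 above Met. Cntfr and Lifr, Il6st and Gfra2, Gfra2 and Ngfr, and Ngfr and Ntrk3 did not differ beyond their spread. The order in heterozygotes and homozygotes had the same first and last genes by their means, with changes of place only between Cntfr and Lifr and between Ngfr and Ntrk3. When wild type replicate 1 was left out, Ngfr was at 0.225 RPKM, in last place below Met at 0.317, and Gfra2 was at 0.886, below Ntrk3 at 0.964. With the longest transcript in place of all exons, Ntrk2 was at 13.6 RPKM and Ngfr and Ntrk3 changed places in wild type. Ntrk2 and Ntrk3 have 10 and 20 annotated transcripts, and forms with and without the kinase domain cannot be told apart in counts per gene.

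**Figure D1:**
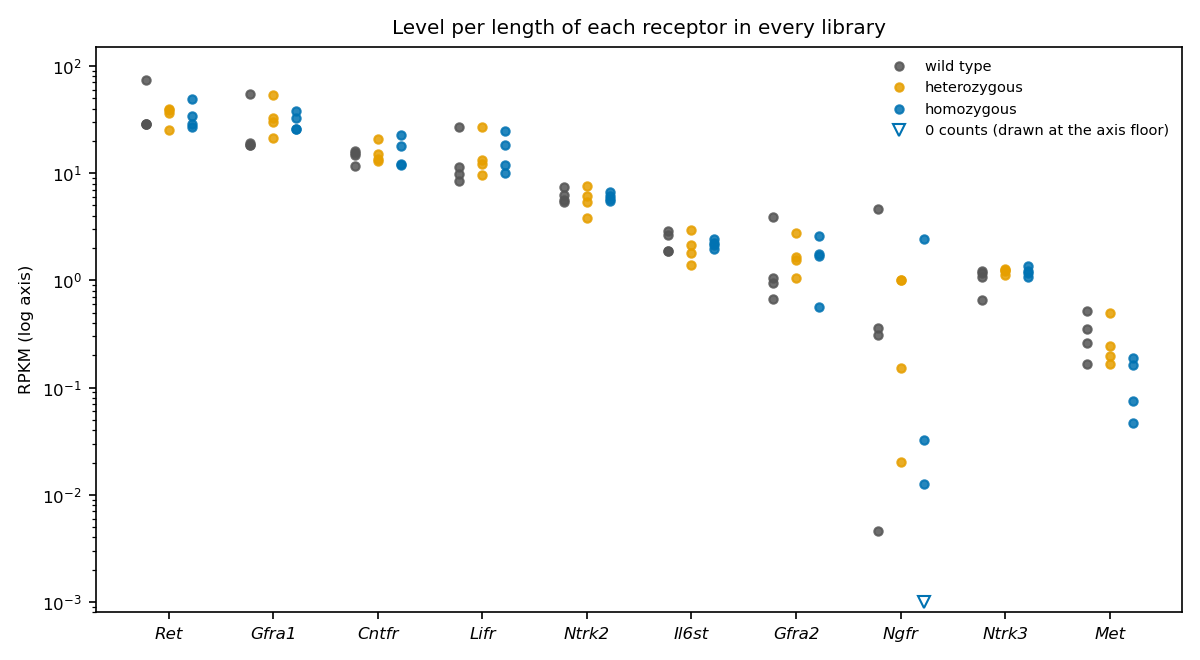
RPKM on a log axis for each of the 10 receptor genes, ordered by the wild type mean, with a point for each of the 12 libraries coloured by genotype and an open triangle for a library with 0 counts. Ret and Gfra1 have the highest means in every genotype, and Ngfr spreads from 0 to 4.60 RPKM, below Met in 6 of 12 libraries.

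The GDNF receptors varied widely among libraries of the same genotype. Ret encodes the receptor tyrosine kinase that signals for all GDNF family ligands, at chr6:118151748-118197744 on the minus strand. Ret was at 497.5, 195, 192 and 195 CPM in wild type replicates 1 to 4, at 260.1, 247, 268 and 172 CPM in the heterozygotes, and at 228.5, 181, 196 and 334 CPM in the homozygotes. Wild type replicate 1 was above every other library, homozygous replicate 4 came next, and the other 3 wild type libraries lay close together, inside the range of both mutant groups. The log2 difference was -0.20 ± 0.31 (SE) in homozygotes (95% interval -0.88 to 0.47, adjusted p = 0.999) and -0.19 ± 0.31 in heterozygotes (-0.86 to 0.49, adjusted p = 0.999). These sizes allow a change from 0.545-fold to 1.39-fold in homozygotes. Without wild type replicate 1, Ret was 0.28 higher on the log2 scale in homozygotes and 0.29 higher in heterozygotes (adjusted p = 0.854 and 0.929).

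Gfra1, which encodes the anchored co-receptor that binds GDNF, lies at chr19:58235604-58455909 on the minus strand. It stood at 300.5, 105, 100.2 and 100.5 CPM in wild type, at 291, 164, 177 and 115 CPM in heterozygotes, and at 179, 140.4, 141 and 206 CPM in homozygotes. Wild type replicate 1 and heterozygous replicate 1 were highest, and the other 3 wild type libraries were below all 8 mutant libraries. The log2 difference was 0.14 ± 0.37 in homozygotes (95% interval -0.66 to 0.94, adjusted p = 1.00) and 0.30 ± 0.37 in heterozygotes (-0.50 to 1.10, adjusted p = 0.999).

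These values rested on wild type replicate 1. The value in heterozygotes rested on heterozygous replicate 1 as well, and was 0.0051 without that library. Without wild type replicate 1, Gfra1 averaged 102 ± 2.70 CPM in wild type (SD, n = 3). It was then 0.72 higher on the log2 scale in homozygotes (unadjusted p = 0.0175, adjusted p = 0.786) and 0.88 higher in heterozygotes (unadjusted p = 0.00589, adjusted p = 0.887, edgeR). The 3 libraries were then below all homozygotes, as holds for 4.13% of genes, and below all heterozygotes, as holds for 3.71%. Counting either direction, ranges did not overlap for 9.41% of genes against homozygotes and 7.93% against heterozygotes. Among the receptors this held for Gfra1 alone. An unadjusted p below 0.05 was reached by 6.29% of genes in homozygotes and 5.6% in heterozygotes (edgeR). Wild type replicate 1 was left out after its values were seen, and no gene passed the adjusted test in that fit. The gene Gm16277, on the opposite strand, overlaps Gfra1 and held 20998 counts against 145137 of Gfra1, or 14.5%, and reads of both can be mixed because the libraries keep no strand.

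Gfra2, the co-receptor that prefers neurturin, lies at chr14:70890130-70979838 on the plus strand. It was much less abundant, at 13.9, 3.31, 2.36 and 3.73 CPM in wild type, at 5.49, 3.72, 5.84 and 9.69 CPM in heterozygotes and at 1.99, 6.18, 9.19 and 5.99 CPM in homozygotes. Again wild type replicate 1 was the highest of all, and the groups overlapped. The log2 differences were 0.00 ± 0.58 in homozygotes and 0.08 ± 0.58 in heterozygotes (adjusted p = 1.00 and 0.999), and without wild type replicate 1 they were 0.90 and 0.98 (adjusted p = 0.796 and 0.887). In RPKM, Gfra1 exceeded Gfra2 by 7.69 to 58.2 times over the 12 libraries. Gfra4, the co-receptor for persephin and no member of the set, stayed between 74.2 and 100.2 CPM in the same libraries.

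The level of Gfra1 relative to Ret was higher in every mutant library than in any wild type library, although the ranges of each gene alone overlapped. The ratio of their RPKM was 0.746, 0.666, 0.643 and 0.636 in wild type replicates 1 to 4. It was 1.38, 0.821, 0.814 and 0.829 in heterozygotes and 0.967, 0.958, 0.889 and 0.763 in homozygotes. The gap was narrow between wild type replicate 1 and homozygous replicate 4, and heterozygous replicate 1 was the highest of all.

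The ratio was 1.33 times as high in homozygotes as in wild type (log2 difference 0.41, SD of 0.16 and 0.10 within the groups, n = 4 each) and 1.39 times as high in heterozygotes (0.48, SD of 0.38 and 0.10). The exact two-sided permutation p was 0.0286 for each, the smallest that 4 against 4 libraries can give. Over 12 tests, of 6 ratios between partner genes in both comparisons, the Benjamini-Hochberg adjusted p of these exact permutation tests was 0.171, so the difference did not pass the correction. The comparisons share the wild type libraries, and this ratio was singled out after its values were seen. Of 16337 other genes, 14 had a ratio to Ret that was above wild type in all 8 mutant libraries and 4 had one that was below, together 0.11%. A ratio within a library does not depend on library scaling, but a difference in it would not show which of the genes differed. Reads of Gm16277 may be part of the Gfra1 counts here as well. Without heterozygous replicate 1, which holds almost no interneuron RNA, the log2 difference in heterozygotes was 0.29.

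**Figure D2:**
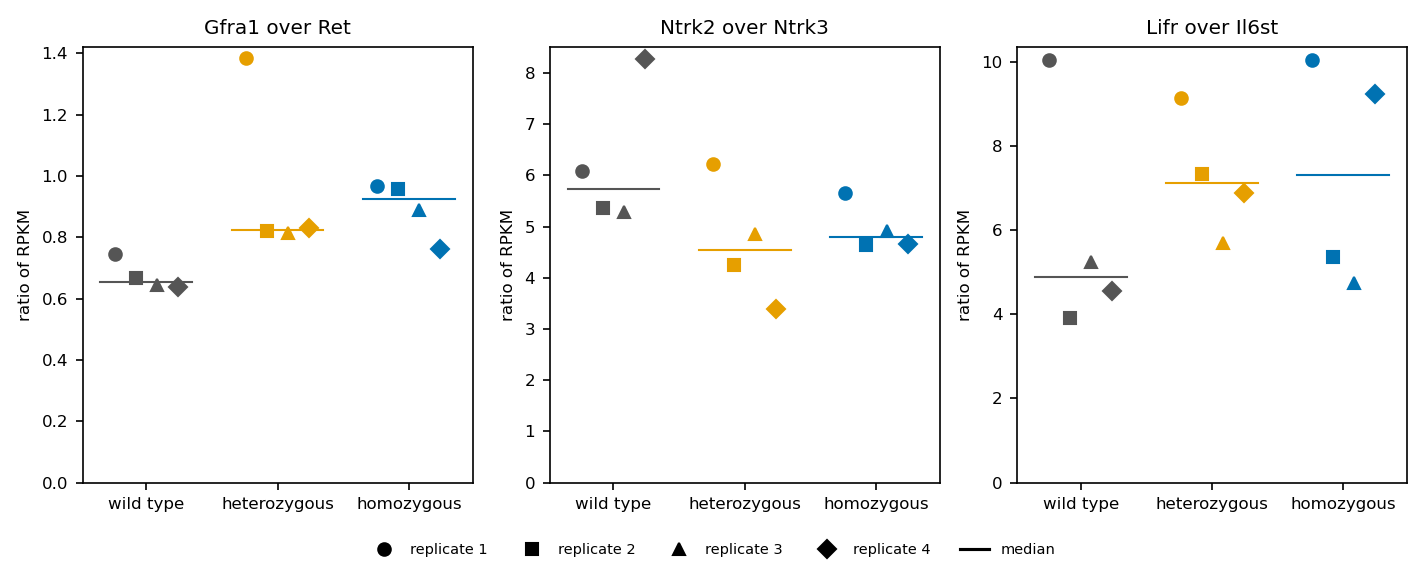
Ratio of RPKM in each library for Gfra1 over Ret, Ntrk2 over Ntrk3 and Lifr over Il6st by genotype, with a marker for each replicate and a line at the median. For Gfra1 over Ret the wild type libraries (0.636 to 0.746) lie below all 8 mutant libraries (0.763 to 1.38), while the groups overlap for the other ratios.

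The neurotrophin receptor kinases were the steadiest of the set. Ntrk2 encodes TRKB, the receptor for BDNF and NT-4, at chr13:58806596-59133970 on the plus strand. Ntrk2 ranged from 104 to 143 CPM in the wild type group, from 74.1 to 146 CPM in heterozygotes and from 106 to 129 CPM in homozygotes, with a coefficient of variation of 16.7% over the 12 libraries, beside 15.4% for Ntrk3. The homozygotes lay within the range of wild type, and heterozygous replicates 4 and 1 were the lowest and highest libraries. Its log2 difference was -0.05 ± 0.17 in homozygotes (95% interval -0.42 to 0.33) and -0.11 ± 0.17 in heterozygotes (-0.49 to 0.27), with adjusted p of 1.00 and 0.999.

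Ntrk3 encodes TRKC, the receptor for NT-3, at chr7:78192362-78578408 on the minus strand. It stood at 36.7, 35.3, 32.2 and 19.7 CPM in wild type, at 36.7, 38.3, 38.0 and 34.2 CPM in heterozygotes and at 32.4, 37.1, 41.0 and 35.5 CPM in homozygotes. Wild type replicate 4 was low and the other 11 libraries lay close together, so that the groups overlapped. The log2 difference was 0.24 ± 0.17 in homozygotes (95% interval -0.14 to 0.61, adjusted p = 0.986) and 0.25 ± 0.17 in heterozygotes (-0.13 to 0.62, adjusted p = 0.999). Without wild type replicate 4 these differences were 0.08 and 0.09. In RPKM, Ntrk2 exceeded Ntrk3 by 3.39 to 8.26 times, and the log2 difference of this ratio was -0.31 in homozygotes and -0.43 in heterozygotes (exact permutation p = 0.0857 and 0.143, adjusted p = 0.343 and 0.429 over the 12 tests of ratios).

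Ngfr was the most variable member. It encodes p75, the low-affinity neurotrophin receptor, at chr11:95568818-95587735 on the minus strand, and adult motor neurons are known to carry little of it unless injured. Its counts were 1199, 1, 72 and 104 in wild type, 5, 274, 232 and 39 in heterozygotes and 0, 3, 7 and 638 in homozygotes. In CPM, wild type replicate 1 reached 15.9 and homozygous replicate 4 reached 8.39, heterozygous replicates 2 and 3 stood near 3.46 and 3.48, and all others were at 1.24 or lower. The group means of 4.55 ± 7.56, 1.88 ± 1.84 and 2.14 ± 4.17 CPM (SD, n = 4 each) rest on these few libraries.

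The log2 difference of Ngfr was -1.09 ± 1.87 in homozygotes (95% interval -5.15 to 2.98, adjusted p = 0.999) and -1.27 ± 1.88 in heterozygotes (-5.35 to 2.81, adjusted p = 0.999), so these libraries leave its direction undecided. Without wild type replicate 1 the differences were 1.47 and 1.28, and without homozygous replicate 4 that in homozygotes was -6.44. Schwann cells also carry p75, and the levels of other genes they express were looked at beside it. Prx, a gene of myelinating Schwann cells, was at 0 CPM in wild type replicate 1 and homozygous replicate 4. Pmp22, which other cells than Schwann cells also express, was at 346 and 271 CPM in these libraries, against 800.2 and 823.5 CPM in heterozygous replicate 1 and homozygous replicate 1, where Ngfr was at 0.0704 and 0 CPM. The part of Schwann cell RNA in the level of Ngfr was not tested. Sox10, of both Schwann cells and oligodendrocytes, lay between 1.30 and 8.21 CPM in all libraries.

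**Figure D3:**
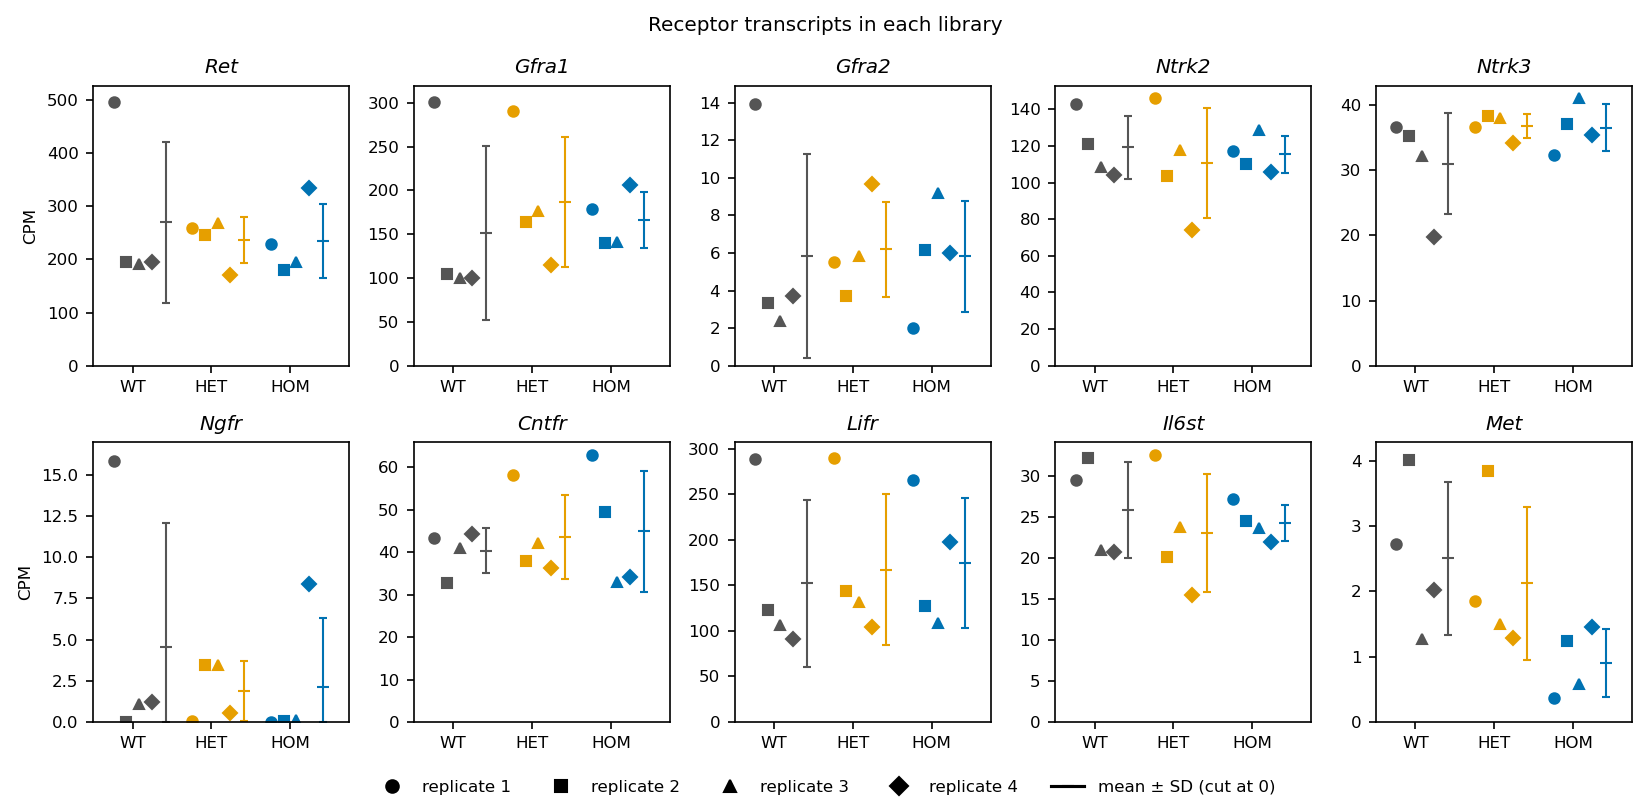
CPM of each receptor gene in the 12 libraries, on linear axes from 0, with a marker for each replicate and the mean ± SD of each genotype beside it (n = 4). Wild type replicate 1 is the highest library for Ret, Gfra1, Gfra2 and Ngfr, and Met is at 0.363 to 1.45 CPM in homozygotes against 1.26 to 4.02 CPM in wild type.

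The receptor subunits for CNTF and LIF differed in how they varied. Cntfr encodes the anchored CNTF-binding subunit, at chr4:41657498-41697089 on the minus strand. It stood at 43.3, 32.7, 41.1 and 44.4 CPM in wild type, at 58.1, 38.0, 42.2 and 36.2 CPM in heterozygotes and at 63.0, 49.5, 33.1 and 34.2 CPM in homozygotes. The libraries poor in interneuron RNA, heterozygous replicate 1 and homozygous replicate 1, were the highest. The log2 difference was 0.16 ± 0.22 in homozygotes (95% interval -0.32 to 0.63) and 0.11 ± 0.22 in heterozygotes (-0.36 to 0.59), with adjusted p of 0.999 for each, and it was -0.05 in each without these libraries.

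Lifr encodes the LIF receptor subunit, at chr15:7129559-7197489 on the plus strand. It was at 288.5, 123, 107 and 91.6 CPM in wild type, at 289.8, 144, 132 and 104 CPM in heterozygotes and at 265, 128, 109 and 197 CPM in homozygotes. The first replicate of every genotype was far above the rest, followed by homozygous replicate 4, and the groups overlapped fully. The log2 difference was 0.20 ± 0.42 in homozygotes (95% interval -0.70 to 1.10, adjusted p = 0.999) and 0.14 ± 0.42 in heterozygotes (-0.77 to 1.04, adjusted p = 0.999). Without wild type replicate 1 it was 0.72 and 0.65 (adjusted p = 0.788 and 0.897), and without heterozygous replicate 1 and homozygous replicate 1 it was -0.07 and -0.26. In heterozygous replicate 1 and homozygous replicate 1 the summed motor neuron markers were also highest and the interneuron markers lowest. Wild type replicate 1 came next for the motor neuron markers, at 12780 CPM against 8730 to 11650 CPM in the remaining libraries. It held excitatory and inhibitory interneuron markers at 258 and 193 CPM. The part of cell content in the levels of Lifr and Cntfr was not tested.

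Il6st encodes gp130, the signalling subunit shared by the cytokines of this family, at chr13:112475008-112506860 on the plus strand. It ranged from 20.7 to 32.2 CPM in the wild type group, from 15.5 to 32.6 CPM in heterozygotes and from 22.0 to 27.2 CPM in homozygotes. The homozygotes lay within the wild type range, and the log2 difference was -0.09 ± 0.22 (95% interval -0.57 to 0.40, adjusted p = 0.999), beside -0.17 ± 0.22 in heterozygotes (-0.65 to 0.32, adjusted p = 0.999). In RPKM, Lifr exceeded Il6st by 3.92 to 10.1 times and Cntfr exceeded it by 4.04 to 9.29 times, while Lifr over Cntfr ran from 0.533 to 1.72. For these 3 ratios, and for Gfra1 over Gfra2, the wild type range overlapped those of both mutant genotypes. The entries of Lifr, Il6st and Ntrk3 in the count table are shorter than the genes in GENCODE M21, so their RPKM may be low by an unknown part.

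Met, the receptor tyrosine kinase for HGF, lies at chr6:17463800-17573980 on the plus strand and had the lowest mean RPKM in each genotype, although Ngfr was below it in 6 of 12 libraries. Met was at 2.73, 4.02, 1.26 and 2.02 CPM in wild type, at 1.86, 3.85, 1.50 and 1.28 CPM in heterozygotes and at 0.363, 1.24, 0.575 and 1.45 CPM in homozygotes. All 4 homozygous libraries were below 3 of the wild type libraries, and the groups overlapped through wild type replicate 3. The counts behind these values were 206, 251, 85 and 170 in wild type and 25, 86, 36 and 110 in homozygotes.

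The log2 difference of Met was -1.47 ± 0.58 in homozygotes, a level of 0.362 times wild type (95% interval 0.151 to 0.868). The unadjusted p was 0.0262 and the adjusted p was 0.986 (edgeR), so it did not pass. In heterozygotes the difference was -0.24 ± 0.57 (95% interval -1.47 to 0.99, adjusted p = 0.999), and between homozygotes and heterozygotes it was -1.23 ± 0.58 (unadjusted p = 0.0546, adjusted p = 1.00). Leaving out 1 library at a time gave values from -1.79 to -1.14 in homozygotes. The unadjusted p was above 0.05 without wild type replicate 2 (0.091, edgeR), homozygous replicate 1 (0.065) or homozygous replicate 3 (0.066). With limma-voom and all libraries it was 0.067. The lowest homozygous value was in replicate 1, the library poor in interneuron RNA, and the part of cell content in it was not tested.

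**Figure D4:**
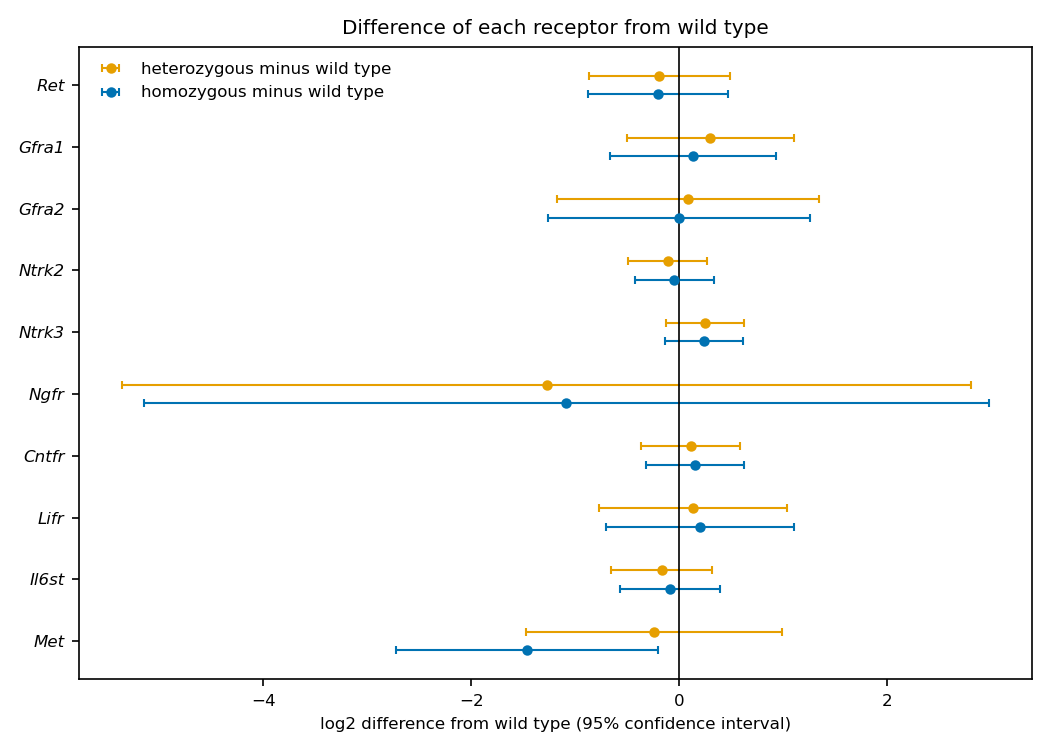
Log2 difference from wild type of each receptor gene in heterozygotes (orange) and homozygotes (blue), with 95% confidence intervals from the edgeR fit over 12 libraries. The interval of Met in homozygotes (-2.73 to -0.20) is the only one that leaves out 0, without adjustment, and Ngfr has the widest intervals.

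Some receptors moved together from library to library. The following correlations are of log2 CPM over 12 libraries, which share their depth, cell content and genotype groups, and they are given as a description. Gfra1 and Lifr had a Pearson r of 0.90 and a Spearman rho of 0.92. Lifr ranked 12 among 16337 genes by likeness to Gfra1, and Gfra1 ranked 84 by likeness to Lifr. Without wild type replicate 1 and heterozygous replicate 1, the libraries farthest from the median of Gfra1, r was 0.78, and without heterozygous replicate 1 and homozygous replicate 1 it was 0.93. Ret and Gfra1 had an r of 0.82 and a rho of 0.84, with 0.78 without wild type replicate 1 and homozygous replicate 4, and Ret and Lifr an r of 0.73 and a rho of 0.76.

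A separate pair was Ntrk2 and Il6st, with an r of 0.89 and a rho of 0.89, and 0.73 without heterozygous replicates 4 and 1. Il6st ranked 3 of 16337 genes by likeness to Ntrk2, and Ntrk2 ranked 4 by likeness to Il6st. Ret and Ngfr had an r of 0.65 and a rho of 0.59, but r was 0.24 without wild type replicate 1 and homozygous replicate 4. It was 0.59 without wild type replicate 1 and homozygous replicate 1. Without heterozygous replicate 1 and homozygous replicate 1 it was 0.79, so its size depended on the libraries left out. Cntfr and Lifr, subunits of 1 receptor, had an r of 0.56 and a rho of 0.40, and r was 0.05 without heterozygous replicate 1 and homozygous replicate 1.

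**Figure D5:**
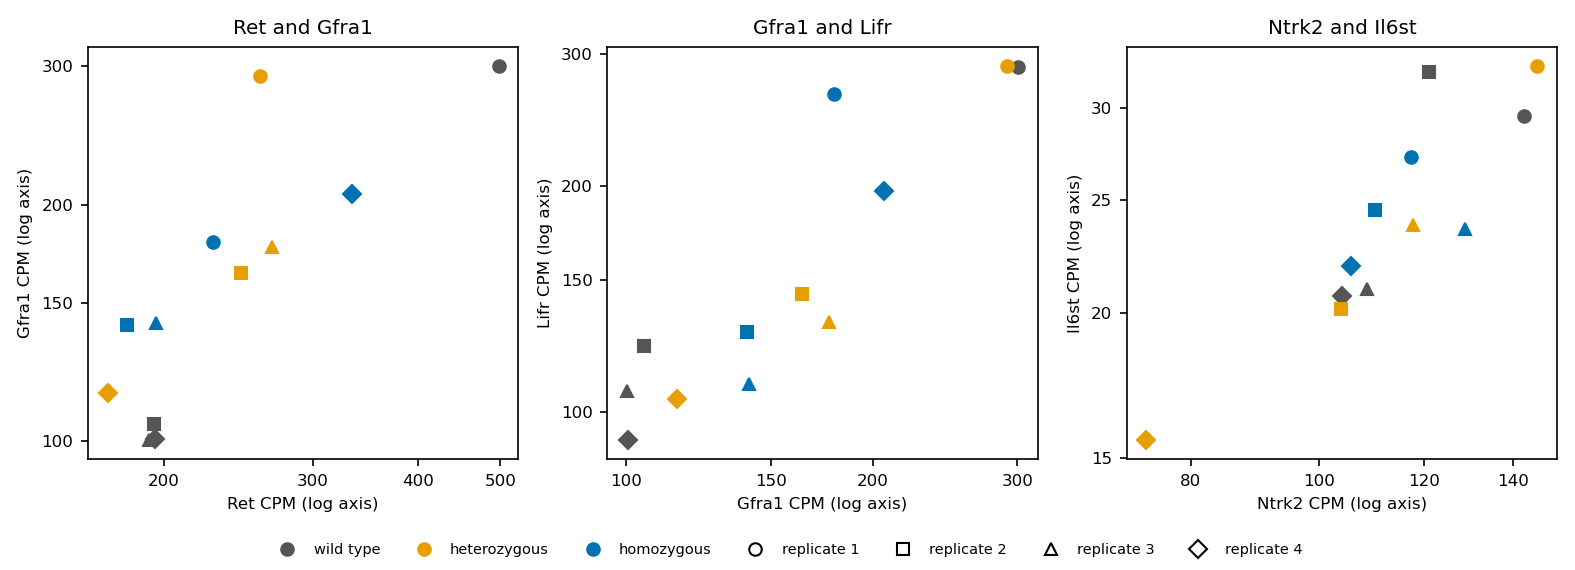
CPM of Gfra1 against Ret, Lifr against Gfra1 and Il6st against Ntrk2 on log axes, with a point for each of the 12 libraries coloured by genotype and shaped by replicate. In the first and second panels wild type replicate 1 is at the top right, and for Ret and Gfra1 the other 3 wild type libraries lie at the bottom, near 100.5 CPM of Gfra1.

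The genes most like each receptor over the 12 libraries, among those with a mean of at least 10 CPM, were named by the highest r. For Ret they were Tubb6, a tubulin (0.93), Ecel1, an endopeptidase of neurons (0.91), and Fam18a (0.90). Tubb6 and Ecel1 were highest in wild type replicate 1, at 92.4 and 608 CPM, and next in homozygous replicate 4, at 62.2 and 304 CPM, against 12.9 to 32.7 and 64.7 to 219.7 CPM elsewhere. For Gfra1 they were Gm16277 (0.98), which may share its reads, Ldha, a glycolytic enzyme (0.95), and Serpina3n, a protease inhibitor (0.95). Those most like Lifr were Ache, the acetylcholinesterase of motor neurons (0.97), Ctsd, a lysosomal protease (0.97), and Rbbp7 (0.96).

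Ngfr was most like Tm4sf1 (0.92), the sodium channel gene Scn9a (0.90) and the steroid reductase gene Srd5a2 (0.88). Srd5a2 reached 220.5 CPM in wild type replicate 1 and 112 CPM in homozygous replicate 4, and was at 0 in wild type replicate 2 and heterozygous replicate 1. The same wild type replicate 1 had the highest summed level of 4 gamma motor neuron markers, 101.9 CPM against 46.4 to 80.7 CPM. Esrrg made up most of it, at 81.4 CPM, and was highest there, as was Wnt7a at 7.86 CPM. Esrrb and Htr1d were highest in homozygous replicate 2 and heterozygous replicate 4. In homozygous replicate 4 the 4 markers summed to 70.5 CPM. The part of motor neuron subtype in the levels of Ngfr and Srd5a2 was not tested. For Ntrk2 the likest genes were Harbi1 (0.90), Parp1 (0.89) and Il6st (0.89), and for Il6st they were Crem (0.91), Parp1 (0.91) and Med14 (0.90). The other receptors were nearest to Mier2, Gm15512 and Atg16l1 (Gfra2, r of 0.79 to 0.82), Dnajb12, Mllt4 and Drp2 (Ntrk3, 0.87 to 0.91), Clcn3, Dctn1 and 1190002N15Rik (Cntfr, 0.91 to 0.92), and Sun1, Bag6 and Cpd (Met, 0.83 to 0.86).

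The ligands of these receptors were scarce in the captured cells. Of 19 ligand genes 11 passed the filter, and Lif was at 0 in all libraries while Gdnf did not exceed 0.271 CPM. Nrtn, which encodes neurturin, averaged 8.70 ± 2.78 CPM in wild type (SD, n = 4), with 0.155 CPM in heterozygous replicate 1 and 0.870 CPM in homozygous replicate 1, and Bdnf averaged 8.06 ± 3.43. Ligand genes passing the adjusted test were 0 of 11 in either comparison with wild type. In homozygotes 4 were higher and 7 lower, with a median log2 difference of -0.26 that takes in Cntf (-1.29, adjusted p = 0.986), Gdf15 (0.89, adjusted p = 0.994), Ntf3 (-1.82, adjusted p = 0.998), Bdnf (-0.12, adjusted p = 1.00) and Nrtn (-0.50, adjusted p = 0.999). In heterozygotes 6 were higher and 5 lower, with a median of 0.02.

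Among 22 further receptors and co-receptors, 18 were tested, and 0 passed in either comparison. In homozygotes 12 were higher and 6 lower (median 0.05), and in heterozygotes 9 and 9 (median -0.00). The most abundant were Sorl1, a sorting receptor, at 245 ± 28.5 CPM in wild type, Gpc1, a heparan sulphate carrier, at 203 ± 46.2 CPM, and Ncam1, an adhesion molecule that can also bind GDNF, at 136.5 ± 26.2 CPM (SD, n = 4 each). Osmr, the oncostatin M receptor that pairs with gp130, had the smallest p of this list for any genotype difference (unadjusted p = 0.0226, adjusted p = 1.00, edgeR), with 0.196 ± 0.225 CPM in wild type, and 0.0317 ± 0.0634 and 1.59 ± 1.27 CPM in heterozygotes and homozygotes (SD, n = 4 each). Sorcs3 (0.28 in homozygotes and 0.56 in heterozygotes on the log2 scale) and Il6ra (0.02 and 1.47) came next, with adjusted p of 0.998 or more.

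Of 58 adaptor and kinase genes below the receptors, 57 were tested and 0 passed in either comparison. In homozygotes 34 were higher and 23 lower (median 0.07), and in heterozygotes 30 and 27 (median 0.02). Dok5, an adaptor of RET and TRK kinases, had a log2 difference of -0.49 ± 0.18 in homozygotes and -0.40 ± 0.18 in heterozygotes (unadjusted p = 0.0171 and 0.0434, adjusted p = 0.986 and 0.999, edgeR). It was at 50.1 ± 5.67 CPM in wild type, and at 37.9 ± 8.31 and 35.6 ± 7.15 CPM with 1 and 2 mutant alleles (SD, n = 4 each). Dok5 was lowest in heterozygous replicate 1 and homozygous replicate 1, at 28.44 and 27.5 CPM, against 32.49 to 58.15 CPM elsewhere. The part of cell content in its level was not tested. Gab2, a docking protein, had -0.77 ± 0.34 and -0.66 ± 0.34, and Pik3ca, a catalytic subunit of PI3 kinase, had -0.24 ± 0.13 and 0.17 ± 0.13 (adjusted p of 0.986 in homozygotes and 0.999 in heterozygotes for each). The most abundant, Maged1 and Ngfrap1, which bind p75, and Jak1, had log2 differences of -0.01, -0.07 and 0.39 in homozygotes (adjusted p = 1.00, 0.999 and 0.990). Jak1 was at 741 CPM in homozygous replicate 1 and at 765 in heterozygous replicate 1, the libraries poor in interneuron RNA, against 263.5 to 474 CPM elsewhere, and without homozygous replicate 1 its difference was 0.10.

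The transcription targets that respond to such signals also gave 0 of 21 tested genes past the adjusted test in either comparison. More of them were lower than higher, 17 against 4 in homozygotes with a median of -0.19, and 15 against 6 in heterozygotes with a median of -0.14, beside 49.4% and 49.7% of all genes being higher. The comparisons share the wild type libraries, and no direction is established for the list. Egr1, an immediate early gene, was at 14.6 ± 3.79 CPM in wild type, and 5.69 ± 3.21 and 10.9 ± 5.05 CPM with 1 and 2 mutant alleles (SD, n = 4 each), a log2 difference of -1.36 ± 0.45 in heterozygotes (unadjusted p = 0.0107, adjusted p = 0.999, edgeR) and -0.42 ± 0.45 in homozygotes. Spred1, an inhibitor of RAS signalling, had -0.42 ± 0.17 in each mutant genotype (adjusted p = 0.986 in homozygotes and 0.999 in heterozygotes). In heterozygous replicate 1 and homozygous replicate 1, Spred1 was at 21.45 and 23.39 CPM, against 22.87 to 43.09 CPM elsewhere. Egr1 was at 2.08 and 5.37 CPM in these libraries, against 3.90 to 18.4 CPM elsewhere. The part of cell content in both was not tested. Arc, which responds to neuronal activity, had 0.41 ± 0.27 in homozygotes and -0.60 ± 0.28 in heterozygotes, again with adjusted p of 0.986 and 0.999. The abundant genes Vgf, Bcl2l1 and Gap43 had -0.21, -0.24 and -0.69 in homozygotes (adjusted p = 0.999, 0.986 and 0.991). Gap43 was at 8.88 and 7.24 CPM in homozygous replicate 1 and heterozygous replicate 1 against 33.8 to 83.9 CPM elsewhere, and without the former its difference was -0.35.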

How the data were processed

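RNA was measured in 12 libraries, 4 for each genotype. Per the labels' protocols, RNA was extracted with the Arcturus PicoPure kit, copied with the SMART-seq v4 Ultra Low Input kit (10 PCR cycles) and made into libraries from 150 pg of cDNA with Nextera XT. These kits add no molecular identifiers and keep no strand. The deposited file gives raw counts, 1 row per gene. Per the submitters' processing notes the tools include Trim Galore 0.4.3 and HISAT2 2.0.5, and the build is GRCm38. The counting program, annotation and strand setting are not given in the sources used here.

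Genes were kept by filterByExpr of edgeR 4.0.16 (R 4.3.3), scaled by TMM (factors 0.94 to 1.03) and fitted in 1 quasi-likelihood model with 3 genotype groups, two-sided, with Benjamini-Hochberg adjustment over 16338 genes and a threshold of 0.05. The biological coefficient of variation was 0.569. Log2 CPM for correlations used a prior count of 2. Repeated symbols, 66 of them, were kept as separate entries. Over 66 pairs of libraries the chi-square of their counts was at least 61 per degree of freedom, so none was a repeat of another. The fitting steps were tested on simulated data. RPKM used exon lengths from GENCODE M21 on GRCm38. Promoters came from a RefSeq table, in which 7 of 10 receptors matched, and 5 of them started within 1000 bases of the gene's start in the count table.

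Named genes are the 10 receptors and Tardbp. From each of 4 pathway lists the 3 genes with the smallest p for any genotype difference and the 3 with the highest mean CPM were named, and for each receptor the 3 genes of highest r. Some genes that this rule or the marker lists would name are not reported here. Members, lists and tests were chosen with earlier results of these data known. Gfra4, Gdnf, Lif, the ratio of Gfra1 to Ret, and the values of wild type replicate 1 were singled out after values were seen. Alternatives were DESeq2 1.42.0, limma-voom (limma 3.58.1), DESeq2 size factors, no filter and a stricter filter (5 CPM in 4 libraries), the replicate block, only the 8 libraries compared, and leaving out libraries. Robust estimation, and leaving out wild type replicate 1 with homozygous replicate 4, were chosen after seeing the data.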

Additional observations from a re-analysis of the deposited data

Results flagged for a closer look

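In wild type, replicate 1 lay farther above its group than the 95% critical value of Dixon's gap test allows for 5 of the 10 receptors: Ret (497.5 CPM), Gfra1 (300.5 CPM), Lifr (288.5 CPM), Ngfr (15.86 CPM) and Gfra2 (13.92 CPM). These are 2.56, 2.95, 2.70, 20.5 and 4.44 times the mean of the other 3 wild type libraries. In homozygotes, replicate 4 was set apart in the same way for Ngfr, at 8.392 CPM. Chance flags about 1 in 20 groups, and over all 16338 genes a library was set apart for 7.9% of genes in wild type, and for 8.94% and 8.88% in heterozygotes and homozygotes. Wild type replicate 1 was the high library for 2.39% of all genes and homozygous replicate 4 for 1.49%. Of these receptors Ret, Gfra1 and Lifr also varied together over the 12 libraries (r of 0.73 to 0.90), while Gfra2 and Ngfr followed Lifr little (r of 0.10 and 0.04). Without heterozygous replicate 1 and homozygous replicate 1, r with Lifr was 0.50 for Gfra2 and 0.62 for Ngfr. With Ret, r over the 12 libraries was 0.40 for Gfra2 and 0.65 for Ngfr.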

How the results depend on the processing

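Of 436 alternative values for the 20 log2 differences of the receptors from wild type, 392 kept their direction, 44 turned, and 0 passed the adjusted test. The smallest adjusted p of a receptor under any alternative was 0.478. Genes called between homozygotes and wild type numbered 1, and 13 with DESeq2. They were 0 without a filter, with only the 8 libraries compared, without the interneuron-poor libraries and without wild type replicate 1 and homozygous replicate 4, and 0 to 0 without 1 library. DESeq2 called 13 genes between heterozygotes and wild type, 8 between mutant genotypes and 5 for any difference.

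Homozygotes against wild type turned direction as follows. With limma-voom, Ret was 0.0298 and Ntrk2 0.0018. Gfra2, at 0.0006, became -0.0009 with DESeq2, -0.0010 with its size factors, -0.0031 with the stricter filter and -0.0049 in the 8 libraries. Without the interneuron-poor libraries Cntfr was -0.0499 and Lifr -0.0724. Without wild type replicate 1 and homozygous replicate 4, Ret was 0.065, Ntrk2 0.10 and Il6st 0.0361. In heterozygotes, Ret was 0.0752 and Ngfr 1.47 with limma-voom, Ret 0.29 and Ngfr 1.28 without those 2 libraries, and Cntfr -0.0538 and Lifr -0.26 without the interneuron-poor libraries.

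Without 1 library at a time, the values in homozygotes ran from -0.42 to 0.28 for Ret, -0.0147 to 0.72 for Gfra1, -0.31 to 0.90 for Gfra2, -0.10 to 0.0615 for Ntrk2, -6.44 to 1.47 for Ngfr, -0.0465 to 0.28 for Cntfr, -0.0707 to 0.72 for Lifr and -0.18 to 0.0379 for Il6st. In heterozygotes they ran from -0.32 to 0.29 for Ret, -0.21 to 0.98 for Gfra2, -0.27 to 0.0481 for Ntrk2, -1.75 to 1.28 for Ngfr, -0.0567 to 0.20 for Cntfr, -0.27 to 0.65 for Lifr and -0.69 to 0.0875 for Met. For Gfra1 over Ret they stayed between 0.37 and 0.48 in homozygotes and 0.29 and 0.55 in heterozygotes. The cause of these changes was not tested.

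Libraries with the same replicate number did not pair for replicates 2 to 4. Their deviations had correlations of -0.05 to 0.10 over 9 pairs, against -0.23 to 0.13 over 36 pairs with different numbers. For replicate 1 the correlation was 0.11 between wild type and each mutant genotype. It was 0.45 between heterozygous replicate 1 and homozygous replicate 1, both poor in interneuron RNA. Of 12 libraries, 4 were most like their own number. With the replicate block, Ngfr in heterozygotes was 0.93 and no receptor was called. Both low-count genes, Ngfr and Met, fell to the stricter filter and have no value there. Of 60 alternative RPKM levels in wild type, 56 moved by less than 1 SD. That SD is wide for Gfra2 and Ngfr, whose levels without wild type replicate 1 were 0.886 and 0.225. Read counts of Met (25 to 305) and Ngfr (0 to 1199) limit what can be seen of them, and counting intervals would be too narrow, since reads are not independent molecules.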
